A study of Arabidopsis thaliana with 34 samples.

Results

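Of the 33321 loci counted in seedlings of 3 Arabidopsis thaliana accessions and their F1 hybrids, 14 were near silent in Col and expressed in both C24 and Ler. They were chosen from the libraries lettered A and B of those 3 accessions. In C24 and in Ler the mean of both libraries had to reach 1 CPM (counts scaled to a common library size with TMM factors) and to be at least 8 times the mean in Col. No upper limit was set in Col, so near silent is meant relative to C24 and Ler. HPL1 (4.44 CPM) and AT4G16920 (3.74 CPM) were above 1 CPM in Col. AT1G54040 also met these criteria and was left out by the rule. The same criteria with the accession names exchanged gave 54 genes near silent in Ler alone and 32 near silent in C24 alone. Because the parental values chose the genes, the difference between Col and the other accessions is described below and not tested.

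The study set the inbred accessions C24, Ler and Col beside their F1 hybrids to ask how defence, stress and hormone networks are altered in hybrids that grow larger. All plants were untreated seedlings, grown on agar plates and harvested 15 days after sowing, and each of the 34 libraries was made from the aerial tissue of a pool of 5 to 15 seedlings. Letters A and B exist for 9 genotypes: the 3 accessions, C24xLer and LerxC24, C24xCol and ColxC24, and ColxLer and LerxCol, with 2 libraries each. Which accession was the mother of a hybrid is not stated, and Col has no library beyond letters A and B.

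Accessions of Arabidopsis are inbred lines from different places, and many of their loci differ by deletions, disrupted coding sequence or silenced copies. An F1 hybrid carries 1 allele set from each parent. When alleles act independently, a gene that only 1 parent expresses stands at the arithmetic mean of the parents, which is the reference level used here. Many genes that differ between accessions serve defence. They include the enzymes of glucosinolates, the sulphur compounds that cabbage relatives break down when chewed, the enzymes of leaf volatiles, and the immune receptors that recognise pathogens inside the cell.

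Total counts were 72386257 to 86704381 in the 18 libraries lettered A and B, and 36324848 to 88686247 in the 12 further libraries of C24, Ler and their hybrids that did not choose the genes. The 4 libraries lettered C (13198638 to 20435372 counts) were left out because earlier results of these data showed many loci at 0 in them. In the libraries lettered A and B, 4 leaf genes for photosynthesis (CAB1, RBCS1A, RCA and CAB3) summed to 33900 to 48400 CPM. Summed markers of root hairs (9.2 to 14.6 CPM), floral organs (5.75 to 10.2 CPM) and seed storage (4.57 to 6.54 CPM) were low in every one of these libraries. Libraries Ler D and Ler E stood apart: the 54 genes near silent in Ler had a median of 47.9% and 33.3% of their level in the expressing accessions there, against 3.81% to 4.35% in Ler A, B, F and G. Calls of the main edgeR tests that rest on these 2 libraries are given with and without them. The DESeq2 fits and the fits with the letter as a block kept both.

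The 14 genes lie on chromosomes 1 (3 genes), 3 (3), 4 (3) and 5 (5), and none on chromosome 2. RefSeq classes 10 of them as protein-coding and 4 as pseudogenes (SADHU3-1, AT3G23109, AT5G33207 and AT5G35796). Among all matched loci 14.9% are pseudogenes. The coding genes hold HPL1, IGMT2, a flavin monooxygenase of the FMO GS-OX type (AT1G63390), an immune receptor (AT4G16920) and a phosphorelay mediator (AT4G04402). They also hold a gene of the hydroxyproline-rich glycoprotein family (AT1G63540), SRS8, and 3 genes of unknown function (AT3G48640, AT5G15360 and AT5G26970). Only AT5G33207 and SRS8 lie next to each other.

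The promoters of 4 genes are shown because these genes are described in detail below and no other annotated gene lies in the window. Each sequence is the 250 bases before the annotated start in RefSeq's TAIR10.1, a Col sequence, read 5′ to 3′ on the strand of the gene. The windows are chr4:8835118-8835367 (plus strand) for HPL1, chr1:7396824-7397073 (minus) for IGMT2, chr3:15814057-15814306 (minus) for SADHU3-1 and chr5:4989183-4989432 (minus) for AT5G15360. Capitals mark the TATA box core TATAAA and the W box core TTGAC, to which WRKY factors bind, on either strand, so that TTTATA and GTCAA are the same motifs on the other strand. The C24 and Ler sequences of these windows are not used here.
HPL1: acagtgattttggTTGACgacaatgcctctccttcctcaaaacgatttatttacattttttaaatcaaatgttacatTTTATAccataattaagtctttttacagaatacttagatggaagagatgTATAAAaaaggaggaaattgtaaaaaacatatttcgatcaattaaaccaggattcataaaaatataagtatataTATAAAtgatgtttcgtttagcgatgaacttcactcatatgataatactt
IGMT2: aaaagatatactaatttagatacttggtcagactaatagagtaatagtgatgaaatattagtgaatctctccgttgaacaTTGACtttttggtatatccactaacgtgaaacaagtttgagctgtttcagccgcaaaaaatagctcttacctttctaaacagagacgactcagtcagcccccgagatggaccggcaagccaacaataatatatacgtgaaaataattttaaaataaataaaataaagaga
SADHU3-1: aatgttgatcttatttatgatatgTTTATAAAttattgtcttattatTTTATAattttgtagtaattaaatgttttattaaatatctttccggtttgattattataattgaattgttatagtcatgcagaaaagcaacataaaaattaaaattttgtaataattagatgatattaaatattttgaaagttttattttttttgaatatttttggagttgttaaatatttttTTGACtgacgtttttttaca
AT5G15360: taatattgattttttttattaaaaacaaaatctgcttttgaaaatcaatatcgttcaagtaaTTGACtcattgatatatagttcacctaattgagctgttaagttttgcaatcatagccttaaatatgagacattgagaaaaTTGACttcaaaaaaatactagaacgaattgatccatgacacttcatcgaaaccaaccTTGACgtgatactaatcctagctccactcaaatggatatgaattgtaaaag

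In these letters TTGAC was found in 9 of the 14 promoters, against 44.9% of 27443 promoters of the same length. TATAAA was in 5 of 14, against 47.3%. The 27443 promoters are those of protein-coding genes, while 4 of the 14 genes are pseudogenes. The G box CACGTG (6.49% of the 27443 promoters) and the GCC box GCCGCC (1.87%) were in none of the 14. TTGAC stands 3 times in the AT5G15360 window and once each in the other windows shown. HPL1 and SADHU3-1 hold TATAAA and IGMT2 and AT5G15360 do not. A match is a run of letters in the Col sequence and says nothing of binding.

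The hybrids of Col had counts of all 14 genes, down to 0.509 CPM for AT3G23109 in a Col/Ler library. In C24xCol and ColxC24, all 56 of 56 gene and library values lay above both Col libraries, and the same held for 56 of 56 values in ColxLer and LerxCol. For 13 of 14 genes all 4 C24/Col hybrid libraries lay below both C24 libraries, and for 13 of 14 all 4 Col/Ler hybrid libraries lay below both Ler libraries. AT3G48640 was the exception in both families. The gap between Col and the other parent was fixed by the choice of genes, so these orders describe where the hybrids stand within it. How many of all genes have such orders was not counted. In bulk tissue, fewer cells of a type and less RNA per cell cannot be told apart.

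Relative to the parental mean, the median of the 14 genes was 101.1% in the C24/Col hybrids (range 50.4% to 119%; SD of the 4 library medians 6.82 percentage points). In the Col/Ler hybrids it was 102.9% (49.9% to 136%; SD 9.19). The medians over all 23502 genes of at least 1 CPM were 99.4% and 99.6%. Within 25 percentage points of the parental mean lay 12 of 14 genes in C24/Col, against 91.5% of all genes, and 9 of 14 in Col/Ler, against 93.8%. The genes near silent in Ler or in C24 had medians of 105.8% and 107% in the hybrids that join their silent parent to Col.

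**Figure D1:**
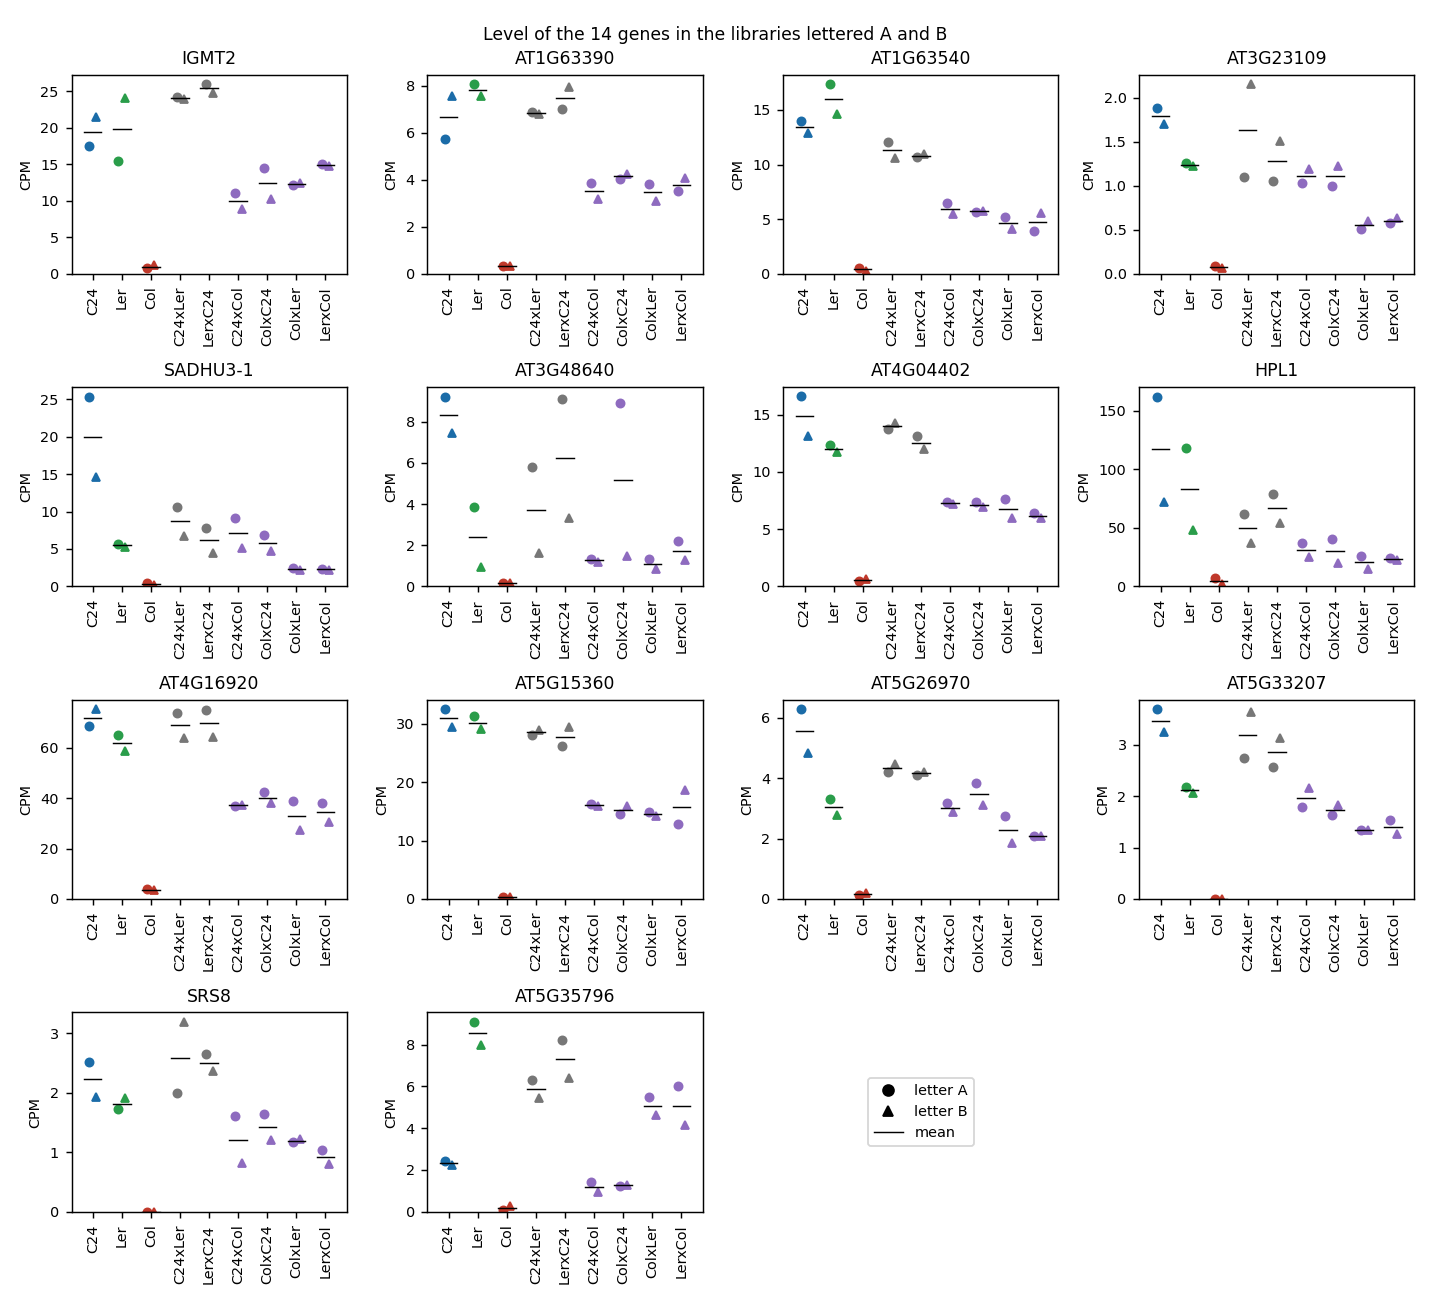
Level in CPM (vertical axes, each from 0) of the 14 genes in the 18 libraries lettered A (circles) and B (triangles) of 9 genotypes (horizontal axes), with the mean of each genotype as a line. The Col points lie at the bottom of every panel, and the Col hybrids (purple) lie between Col (red) and the other parent in 13 of 14 genes of each family, the exception being AT3G48640.

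No gene of the 14 was called off the parental mean in either Col family by edgeR's quasi-likelihood fit (adjusted p below 0.05 over 29770 genes; 0.319% of all genes were called in C24/Col and 0.413% in Col/Ler). The lowest adjusted p were 0.457 in C24/Col and 0.099 in Col/Ler. At an unadjusted p below 0.05 there were 0 genes in C24/Col and 3 in Col/Ler, against 3328 and 2568 of all 29770 genes. The letters pair the libraries, and with the letter as a replicate block 1 gene was called in each family: SADHU3-1 lower in C24/Col and AT1G63540 lower in Col/Ler. The parental mean is made of the libraries that chose the genes, so these values and calls are a description. With that block 3.36% of all genes were called lower in C24/Col and 1.92% in Col/Ler. A difference between the families in their place between the parents was called for 0 of 14 genes (0.138% of all genes). For that difference 1 gene had an unadjusted p below 0.05, against 1147 of all 29770 genes. Intervals were narrow for AT5G15360, AT4G16920 and AT4G04402 and wide for HPL1 and AT3G48640.

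**Figure D2:**
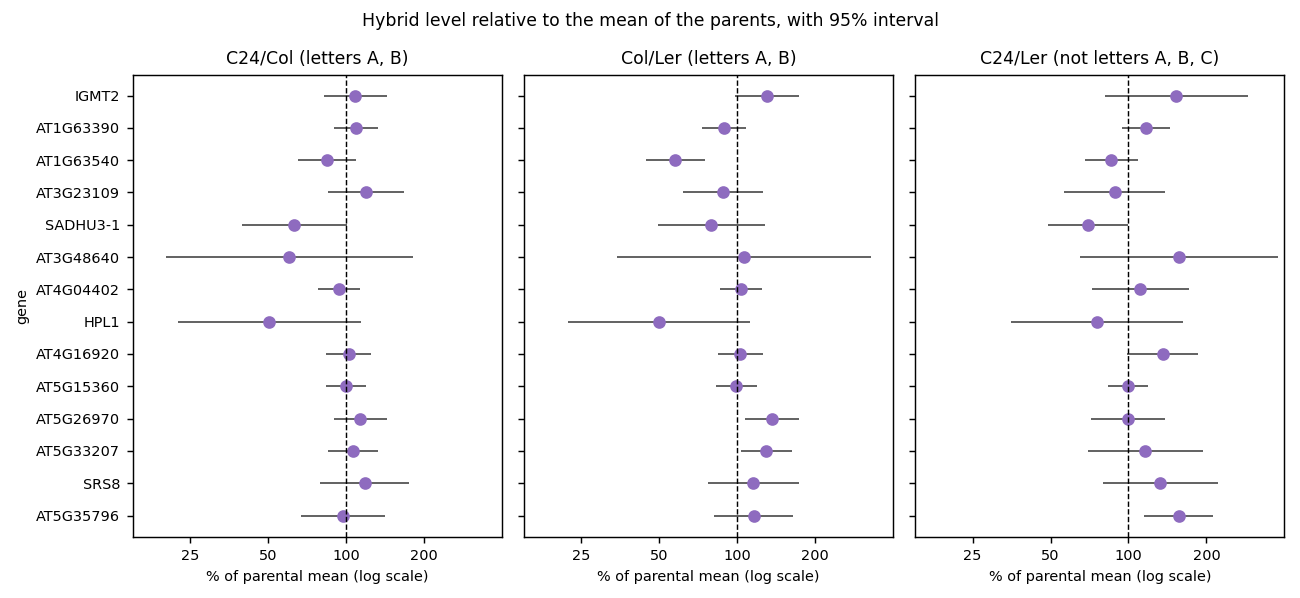
Fitted hybrid level as a percentage of the mean of the parents (horizontal axes, log scale) for each of the 14 genes (rows), with its 95% interval as a line and the parental mean as the dashed line at 100%. The left and middle panels use letters A and B, and the right panel uses the 12 libraries that did not choose the genes. HPL1 has the lowest point in both Col families, at 50.4% and 49.7%.

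HPL1 (AT4G15440) encodes hydroperoxide lyase, which cuts lipid hydroperoxides into the C6 aldehydes of the smell of cut leaves, and Col is known to carry a loss-of-function allele of it. It stood at 162 and 72.4 CPM in C24 A and B, 119 and 48.2 in Ler, and 7.00 and 1.88 in Col. The C24/Col hybrids had 37.4 and 25.4 CPM (C24xCol) and 40.3 and 19.8 (ColxC24), and the Col/Ler hybrids 26.0 and 14.9 (ColxLer) and 24.2 and 22.4 (LerxCol). All 8 of these hybrid libraries lay between their parents' libraries, and letter A was above letter B in 9 of 9 genotypes. Against the parental mean the log2 difference was -0.99 ± 0.53 (SE) in C24/Col (95% interval of the level 22.4% to 114%) and -1.01 ± 0.53 in Col/Ler (22.2% to 112%). Neither passed edgeR's test (adjusted p = 0.525 and 0.629). With the letter as a block they were -0.93 ± 0.27 and -0.89 ± 0.27, again not called (adjusted p = 0.0774 and 0.126). In letters A and B, C24xLer (49.6 ± 17.9 CPM, SD, n = 2) and LerxC24 (66.6 ± 17.7), both of whose parents express HPL1, had 49.4% and 66.4% of their parental mean. The libraries that did not choose the genes put the C24/Ler hybrids at 75.7% (interval 35.2% to 163%), which was not called. Without Ler D and E the value was 77.0% (34.3% to 173%).

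IGMT2 (AT1G21120) encodes a methyltransferase of indole glucosinolates. Its level was 17.5 and 21.5 CPM in C24, 15.4 and 24.2 in Ler, and 0.784 and 1.19 in Col. C24xCol had 9.99 ± 1.57 CPM (SD, n = 2), ColxC24 12.4 ± 2.94, ColxLer 12.2 ± 0.203 and LerxCol 14.9 ± 0.266. Both Col families thus stood above Col and below the other parent, at 109% (interval 81.9% to 144%) and 130% (98.01% to 172%) of the parental mean, and neither was called (adjusted p = 0.842 and 0.607). IGMT2 is 96.3% identical to its neighbour IGMT3 over 1359 bases, so reads may be shared between them, and its counts are uncertain for that reason. IGMT3 itself stood at 3.15 CPM in C24, 6.37 in Ler and 2.51 in Col.

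AT1G63390 belongs to the flavin monooxygenases of the FMO GS-OX type, enzymes of which oxidise aliphatic glucosinolates. It had 6.66 ± 1.31 CPM in C24 (SD, n = 2), 7.83 ± 0.357 in Ler and 0.317 ± 0.013 in Col. Hybrid means of 3.52 (C24xCol), 4.14 (ColxC24), 3.46 (ColxLer) and 3.78 CPM (LerxCol) lay between the parents. Its neighbours AT1G63370 (1.16, 2.07 and 0.294 CPM in C24, Ler and Col) and AT1G63380 (1.84, 1.69 and 0.55 CPM) were lower in Col as well (adjusted p = 0.000224 and 0.00114, edgeR). AT1G63390 is 97.9% identical to AT1G62600 over 483 bases, and that copy had 18.1, 16.8 and 18.7 CPM in C24, Ler and Col, so reads may be shared. AT1G63380 overlaps AT1G63390 on the other strand, and whether counting used strand is not stated.

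AT4G16920 encodes an intracellular immune receptor of the TIR-NBS-LRR class in the RPP5 cluster of chromosome 4, the cluster that holds the downy mildew resistance genes RPP4 and RPP5. Its level was 68.5 and 75.4 CPM in C24, 65.0 and 58.7 in Ler, and 3.88 and 3.61 in Col. C24xCol had 37.2 ± 0.320 CPM (SD, n = 2), ColxC24 40.2 ± 3.05, ColxLer 33.1 ± 8.03 and LerxCol 34.3 ± 5.25. The hybrids stood at 102% (interval 83.8% to 124.6%) and 103% (84.3% to 125.1%) of the parental mean, among the narrowest intervals of the 14 genes. AT4G16920 is 92.4% identical to RPP5 over 4545 bases and overlaps AT4G16915 on the other strand and the long non-coding locus AT4G06440, so its counts are uncertain for these reasons.

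The genes around 3 of these enzymes and receptors were compared between Col and the mean of the log levels of C24 and Ler. This reference lies below the arithmetic mean where C24 and Ler differ, so Col can be called higher while it is below 1 of them. In this contrast 13.5% of all genes were called (8.33% higher and 5.19% lower in Col). Among 9 other enzymes of the oxylipin pathway, to which HPL1 belongs, 0 were higher and 2 lower in Col. These were the allene oxide cyclases AOC1 (140 CPM in C24, 94.7 in Ler and 34 in Col; log2 -1.76 ± 0.22, adjusted p = 0.000325) and AOC2 (299, 220 and 138 CPM; -0.89 ± 0.21, 0.0184), which act in jasmonate synthesis. With the letter as a block 5 of the 9 were lower (9.91% of all genes), as LOX2, AOS and OPR3 were called too. Among 7 other genes of indole glucosinolate modification 1 was called, IGMT3, lower in Col by 0.84 ± 0.18 on the log2 scale (adjusted p = 0.00834).

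The RPP5 cluster held both directions. Of 6 other cluster genes 4 were called higher in Col than the mean of the log levels. For 3 of them Col was also above both accessions: RPP4 (109 CPM in C24, 35 in Ler and 181 in Col; log2 1.55 ± 0.19, adjusted p = 0.000102), RPP5 (125, 50.9 and 204 CPM; 1.36 ± 0.16, 5.85e-05) and AT4G16900 (13.8, 12.9 and 24.5 CPM; 0.87 ± 0.12, 0.000299). AT4G16940 (6.92, 0.676 and 3.23 CPM; 0.58 ± 0.14, 0.0123) stood between C24 and Ler in Col. AT4G16960 was called lower (-1.48 ± 0.14, 2.24e-05), with 38.4 CPM in C24, 5.7 in Ler and 5.31 in Col, so that Col and Ler stood close together. With the letter as a block SNC1 was called too (adjusted p = 0.000165), although Col (196 CPM) stood between C24 (337) and Ler (46.8). The median log2 differences were -0.89 for the oxylipin list, -0.10 for the indole glucosinolate list and 0.76 for the cluster. Reads may be shared within the cluster, as AT4G16920 is 92.4% identical to RPP5 over 4545 bases. The reference is a Col sequence, so cluster genes may also be counted too low in C24 and Ler. The part of either in these differences was not tested.

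**Figure D3:**
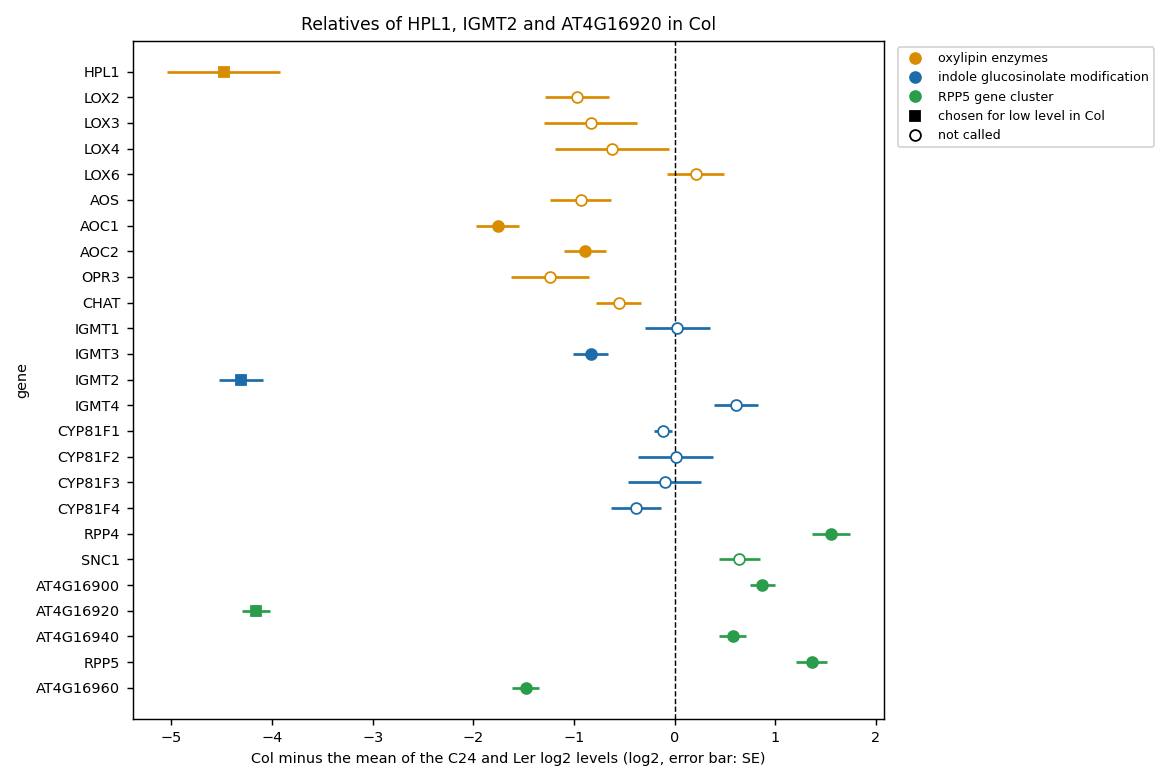
Col minus the mean of the log2 levels of C24 and Ler (horizontal axis; bars, SE) for enzymes of the oxylipin pathway, genes of indole glucosinolate modification and genes of the RPP5 cluster (rows). Squares are HPL1, IGMT2 and AT4G16920, which were chosen for their low level in Col, and open circles were not called. In the RPP5 cluster 4 of the 6 other genes lie to the right of 0 with a call, and AT4G16960 lies to the left.

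AT4G04402, a two-component phosphorelay mediator, is of the class of proteins that pass phosphate between receptors and response regulators. Its level was 14.9 ± 2.45 CPM in C24 (SD, n = 2), 12.02 ± 0.444 in Ler and 0.521 ± 0.119 in Col. Its hybrid means were 7.30 (C24xCol), 7.14 (ColxC24), 6.77 (ColxLer) and 6.17 CPM (LerxCol), which put C24/Col at 93.9% (interval 77.9% to 113%) and Col/Ler at 103% (85.4% to 124%) of the parental mean. Its closest relative in the reference, AT3G29350, shares 80.1% identity over 467 bases.

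AT1G63540, annotated to the hydroxyproline-rich glycoprotein family, gave the lowest adjusted p of the 14 genes against the parental mean. It stood at 14.01 and 12.9 CPM in C24, 17.4 and 14.6 in Ler, and 0.501 and 0.278 in Col. ColxLer had 5.23 and 4.09 CPM and LerxCol 3.94 and 5.60, all of them below the parental mean of Ler and Col. The Col/Ler level was 57.5% of the parental mean (interval 44.3% to 74.7%; log2 -0.80 ± 0.17, adjusted p = 0.099 by edgeR), and with the letter as a block the value was -0.79 ± 0.15 (adjusted p = 0.0136). Without Col B it was called too (-0.81, adjusted p = 0.0362). C24xCol (6.50 and 5.44 CPM) and ColxC24 (5.65 and 5.77 CPM) stood at 84.3% (65.0% to 109%) and were not called.

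SADHU3-1 (AT3G44042) is a non-coding copy of a retrotransposon family known for variable silencing among accessions. It had 25.4 and 14.7 CPM in C24, 5.69 and 5.26 in Ler, and 0.411 and 0.242 in Col. C24xCol had 9.09 and 5.19 CPM, ColxC24 6.85 and 4.71, ColxLer 2.48 and 2.23, and LerxCol 2.33 and 2.18. Letter A was above letter B in 9 of 9 genotypes. The C24/Col level was 63.1% of the parental mean (interval 39.5% to 101%; log2 -0.66 ± 0.31, adjusted p = 0.457), and the block moved its standard error to 0.15 (-0.65, adjusted p = 0.0263). In Col/Ler it stood at 79.4% (49.3% to 128%). Its closest relative, AT3G42658, shares 79.7% identity over 910 bases.

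AT5G33207, a pseudogene, and SRS8 (AT5G33210), of the SHI-related family of zinc finger regulators of shoot organs, are neighbours on chromosome 5 and had 0 counts in both Col libraries. The 4 libraries of C24 and Ler had 159 to 277 counts of AT5G33207 and 146 to 189 of SRS8. Against a floor of 3 counts over both Col libraries, C24 was at least 185.9-fold and Ler at least 113.4-fold higher for AT5G33207, and at least 119.2-fold and 97.25-fold for SRS8. The next locus, AT5G33220, also had 0 CPM in Col, with 0.922 in C24 and 0.464 in Ler, and was under the level required in both. AT5G33207 stood at 106% (interval 85.2% to 132%) of the parental mean in C24/Col and 129% (103% to 163%) in Col/Ler, and SRS8 at 118% (79.2% to 176%) and 115% (76.8% to 173%), and none was called. AT5G33207 is 95.8% identical to AT5G59620, which stood at 18.4 CPM in C24, 1.52 in Ler and 0.79 in Col, and SRS8 is 95.4% identical to STY1 over 323 bases, so reads may be shared. Of 9 other SRS genes 1 was called, LRP1, lower in Col by 0.30 ± 0.09 on the log2 scale (adjusted p = 0.0457).

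AT3G23109 and AT5G35796 are transcribed pseudogenes, and both are among the chosen genes nearest to the 8-fold threshold, though well above it. The smaller of the folds over Col was 13.6 for AT5G35796, 16.1 for AT3G48640 and 16.5 for AT3G23109, the nearest inside. Nearest outside, below 8, were AT4G24420 (7.83), IMS2 (7.69) and AT3G45390 (7.58). AT5G35796 had 2.34 ± 0.125 CPM in C24 (SD, n = 2), 8.55 ± 0.766 in Ler and 0.172 ± 0.134 in Col. Its hybrid means were lower with C24 than with Ler as the other parent, at 1.19 and 1.26 CPM in C24xCol and ColxC24 and 5.05 and 5.07 in ColxLer and LerxCol. AT3G23109 had 1.79 ± 0.129 CPM in C24, 1.24 ± 0.0246 in Ler and 0.0752 ± 0.0208 in Col, and is 98.1% identical to its neighbour AT3G23100 over 212 bases, so reads may be shared.

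Of the genes of unknown function, AT5G15360 sat closest to the parental mean. Its level was 32.5 and 29.5 CPM in C24, 31.4 and 29.1 in Ler, and 0.347 and 0.351 in Col. C24xCol had 16.3 and 15.97 CPM, ColxC24 14.5 and 15.9, ColxLer 14.9 and 14.2, and LerxCol 12.9 and 18.7. These gave 99.9% (interval 83.5% to 119%) in C24/Col and 99.2% (82.9% to 119%) in Col/Ler. No close copy of AT5G15360 was found in the reference.

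AT5G26970 had 5.55 ± 1.03 CPM in C24 (SD, n = 2), 3.04 ± 0.354 in Ler and 0.161 ± 0.0284 in Col. ColxLer had 2.73 and 1.84 CPM and LerxCol 2.08 in both libraries, which put Col/Ler at 136% of the parental mean (interval 107% to 173%; adjusted p = 0.456). AT3G48640 had the widest interval of the 14 genes in both Col families. It stood at 9.23 and 7.47 CPM in C24, 3.87 and 0.934 in Ler, and 0.141 and 0.157 in Col, while ColxC24 had 8.90 CPM in letter A and 1.47 in letter B. C24xCol had 1.32 and 1.20, ColxLer 1.34 and 0.819, and LerxCol 2.19 and 1.29 CPM. Its interval ran from 20.1% to 180.5% of the parental mean in C24/Col and from 34.4% to 329% in Col/Ler.

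The direction of the cross was compared in hybrid libraries alone, none of which chose the genes. Between C24xCol and ColxC24, ColxLer and LerxCol, and C24xLer and LerxC24, edgeR and DESeq2 called 0 of 14 genes, and edgeR called 0 of 29770 genes, so that the background was 0% in each (715, 1057 and 918 genes had an unadjusted p below 0.05). At an unadjusted p below 0.05 there was 1 gene in the first comparison (AT3G48640, log2 -2.04 ± 0.88, adjusted p = 1 by edgeR) and 0 in the others. The log2 differences of the 14 genes ran from -2.04 to 0.31, from -0.69 to 0.38 and from -0.75 to 0.50. With the letter as a block edgeR again called 0 of 14 genes, against 5, 0 and 1 of all 29770 genes. SADHU3-1 then had an unadjusted p of 0.0144 between C24xLer and LerxC24 (log2 0.51 ± 0.18, adjusted p = 0.881). In the first comparison AT3G48640 had 0.0159 (-1.72 ± 0.57, adjusted p = 0.924).

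Against the expressing parent, 10 of 14 genes were lower in the C24/Col hybrids than in C24 (2.87% of all genes were lower) and 9 of 14 lower in the Col/Ler hybrids than in Ler (3.68%). The libraries of C24 and Ler took part in choosing the genes, so these counts are a description. The median log2 difference was -0.92 and -0.89, against -0.0046 and 0.0016 over all genes. With the letter as a block 13 and 11 genes were lower (8.47% and 8.64% of all genes). Not called by edgeR without the block were HPL1 (-1.93 ± 0.55, adjusted p = 0.0502), AT3G23109, AT3G48640 and SRS8 against C24, and IGMT2, AT3G48640, AT5G26970, SRS8 and AT5G35796 against Ler. DESeq2, also without the block, called 11 and 10 genes, adding HPL1 against C24 (adjusted p = 0.0145) and AT5G35796 against Ler (0.00841). The share of all genes called was not computed for DESeq2 or for the fits with a library left out. Without C24 A 6 genes were lower than C24, and without Ler A 5 were lower than Ler, where HPL1 came to -1.14 (adjusted p = 0.53).

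C24 and Ler both express the 14 genes, and 8 further libraries of them that did not choose the genes compare their levels. By edgeR 4 of 14 genes differed (8.41% of all 29877 genes; 3.83% higher and 4.59% lower in C24), 3 higher in C24 and 1 lower. SADHU3-1 had 13.1, 21.0, 9.28 and 12.6 CPM in C24 D to G and 2.33, 3.31, 1.94 and 1.97 in Ler D to G, with no overlap. The log2 difference was 2.55 ± 0.25 (adjusted p = 0.000141), and 2.84 when Ler D and E were left out. AT5G35796 had 3.002, 4.37, 4.18 and 4.29 CPM in C24 and 6.76, 12.03, 10.5 and 10.6 in Ler (-1.34 ± 0.23, adjusted p = 0.00498, and -1.42 when Ler D and E were left out).

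AT5G26970 was higher in C24 (6.89 ± 2.31 CPM, SD, n = 4) than in Ler (3.26 ± 0.864), by 1.07 ± 0.24 on the log2 scale (adjusted p = 0.0204; 1.17, 0.0248 when Ler D and E were left out). That call was lost without C24 G (0.83, adjusted p = 0.0538), without Ler F (1.02, 0.0664) or without Ler G (1.06, 0.0543). AT5G15360 was higher in C24 (48.8 ± 6.55 CPM) than in Ler (33.5 ± 5.70), by 0.54 ± 0.13 (adjusted p = 0.0294), and this call was lost without C24 D (0.51, 0.0706), C24 E (0.47, 0.0733), C24 G (0.57, 0.0556) or Ler G (0.53, 0.0777), and without Ler D and Ler E together (0.44, 0.0755). SRS8 was lower in C24 only without Ler D and Ler E (-1.11 ± 0.27, adjusted p = 0.0224, against -0.55 ± 0.39 and 0.471 with them). In those 2 libraries 10 of the 14 genes were lower than in Ler F and G, with a median of 86.0% (range 36.8% to 188%), and the part of this in the comparisons was not tested.

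HPL1 varied widely between pools of an accession, as C24 D to G had 55.9, 296, 138 and 191 CPM and Ler D to G 24.7, 70.5, 37.5 and 43.2. Every Ler library but Ler E lay below all 4 C24 libraries. C24 was higher by 1.95 ± 0.55 on the log2 scale, which did not pass edgeR's test (adjusted p = 0.0599; 2.08, 0.103 when Ler D and E were left out). DESeq2 called 6 genes in place of 4, adding HPL1 (1.96, adjusted p = 0.00233) and AT3G23109 (1.10, 0.0176). DESeq2 was not run without Ler D and E, and the share of all genes it called was not computed. By edgeR AT3G23109 had an adjusted p of 0.0787, and 0.181 when Ler D and E were left out. With the letter as a block HPL1 came to 1.82 ± 0.17 (edgeR, adjusted p = 0.000727). The count of genes that differed was then 5 in place of 4 (20.3% of all genes). That fit also left out the LerxC24 libraries, whose letters match no label, so that 29815 genes were tested, and it kept Ler D and E. The effect of the block and that of the libraries left out cannot be told apart here. Whether letters D to G pair the libraries was not checked.

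The C24/Ler hybrids, in 4 libraries that did not choose the genes, were called off the parental mean for 0 of 14 genes (0.177% of all 29877 genes). An unadjusted p below 0.05 was reached by 2 of the 14, against 1795 of all 29877 genes. The log2 differences of the 14 genes ran from -0.52 to 0.65 (median 0.19, against -0.02 over all genes). When Ler D and E were left out they ran from -0.48 to 0.86 with a median of 0.02, and again 0 genes were called and 2 had an unadjusted p below 0.05. IGMT2 then came to 124.9% in place of 153%, AT4G16920 to 117.5% in place of 135.5% and AT3G48640 to 181% in place of 157%. SADHU3-1 stood at 5.86 and 7.26 CPM in C24xLer D and E and 5.63 and 4.33 in the 2 LerxC24 libraries whose letters match no label (U1 and U2), above all 4 Ler libraries and below all 4 C24 libraries. That is 69.7% of the parental mean (interval 48.9% to 99.4%; adjusted p = 0.826), and 71.7% when Ler D and E were left out. AT5G35796 stood at 6.77, 12.7, 13.7 and 10.7 CPM in the same libraries, 156% of the parental mean (interval 115% to 213%; adjusted p = 0.49), and 149.7% when those 2 Ler libraries were left out. Letters A and B gave the 14 genes a median of 98.8% (57.9% to 126%), where LerxC24 had a median of 75.2% for the 54 genes near silent in Ler and 128% for the 32 near silent in C24.

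**Figure D4:**
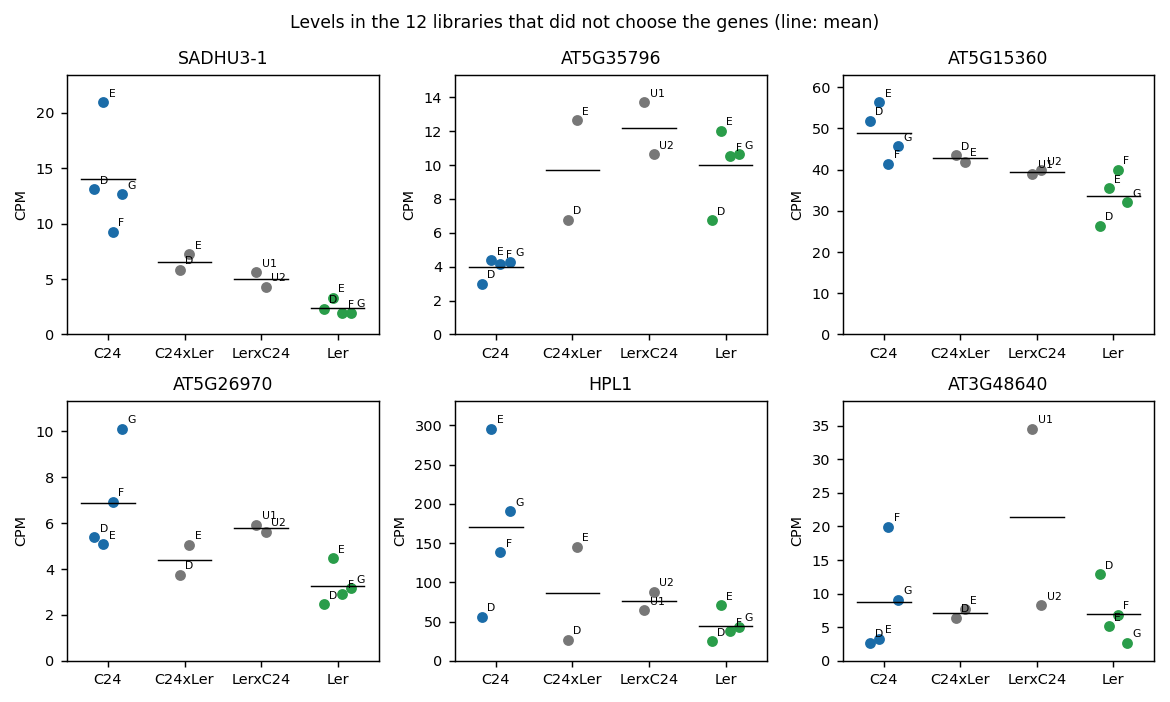
Level in CPM (vertical axes, each from 0) of 6 of the 14 genes in the 12 libraries of C24, C24xLer, LerxC24 and Ler that did not choose them (horizontal axes), 1 point per library with its letter and the mean as a line. The C24 and Ler points of SADHU3-1 and AT5G35796 do not overlap, and the C24 points of HPL1 spread from 55.9 to 296 CPM.

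Around the 14 genes, 44 other loci lie among the nearest neighbours, up to 2 on each side, and 38 of them could be tested. Of these 8 were lower and 3 higher in Col than the mean of the log levels of C24 and Ler (5.19% and 8.33% of all genes), with a median log2 difference of -0.13. Lower were IGMT3, AT1G63370, AT1G63380, AT1G63530, AT1G63550, AT3G44035, AT5G26960 and AT5G33220, of which AT3G44035 (10.9, 2.23 and 2.78 CPM in C24, Ler and Col) stood between C24 and Ler. Higher were AT3G44030 (1.40, adjusted p = 5.69e-05, edgeR), next to SADHU3-1, AT4G16900, and AT5G26980 (1.92, 3.21e-07), next to AT5G26970. HPL1, AT5G15360, AT3G23109, AT3G48640, AT4G04402 and AT5G35796 had no called neighbour.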

How the data were processed

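Aerial tissue of seedlings was measured by mRNA sequencing in 34 libraries. Per the labels' protocols, total RNA was column-purified with DNase digestion and sequenced as TruSeq libraries, single-ended or paired-ended. The authors deposited raw counts per locus, which are not normalized. The submitters' processing notes name TAIR10 and FastQC. The sources used here do not name the aligner or counter or state the use of strand. The reference is a Col sequence, so a gene that differs from it in C24 or Ler may be counted too low there.

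CPM were computed from the counts with TMM factors. Tests were edgeR 4.0.16 quasi-likelihood tests (R 4.3.3) after filterByExpr, which saw the 9 genotypes, with robust dispersions. P-values were adjusted by Benjamini-Hochberg over the whole table (29770 in the 18 libraries lettered A and B, 29877 in the 12 others used), and calls were made below 0.05. With the letter as a block, the fit of those others left out LerxC24 and tested 29815 genes. All 14 genes passed the filter. Hybrids of both directions were set against the arithmetic mean of the fitted parental levels, with the standard error linearised. DESeq2 1.42.0 was the alternative for the other tests. The scripts were tested on simulated data. Copies were sought with blastn 2.17.0, and 32565 of 33321 loci matched RefSeq's TAIR10.1.

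Columns were matched to samples by name. In 2 LerxC24 columns the letter is in no title, so they were used without one (U1 and U2). Chi-square per gene was at least 24.8 in each of 67 replicate pairs, far above counting noise. Letters A and B pair the libraries: deviations from genotype means correlated above 0.1 in 36 of 36 genotype pairs (0.211 to 0.558, median 0.389). This was not checked for letters D to G.

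The genes and the lists around them were chosen with earlier results of these data known. Genes were named by a rule on level, calls, ratio to the parental mean, nearness to the threshold and having a symbol, which took in all 14. The deposited libraries are pools of 5 to 15 seedlings, and p-values measure the spread between pools. Alternatives tried were DESeq2 size factors, no filter, the letter as a block, DESeq2, each library left out, the mean of logs, letter C included, Ler D and Ler E left out, and other thresholds.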

Additional observations from a re-analysis of the deposited data

Results flagged for a closer look

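AT5G35796, the transcribed pseudogene that was lower in C24 than in Ler, had 3.0 CPM in C24 D, far below the other 3 libraries of that group, whose values ran from 4.18 to 4.37 CPM (group median 4.23). The gap to the nearest library was 0.859 of the whole range, above Dixon's 95% critical value for 4 samples. Of 28 groups examined this was the only such value. Chance gives such a value in about 1 of 20 groups, so 1 among 28 is no more than chance gives. Ler D was also the lowest Ler library, at 6.76 CPM.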

How the results depend on the processing

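The mean of the parental log levels lies far below the arithmetic mean for a gene near 0 in Col. The genes were chosen for a low level in Col, so calls against that mean are a description. The share of all genes called against it was not computed. Against the mean of the log levels, 10 of 14 genes were called higher in C24/Col and 10 in Col/Ler, in place of 0 and 0. That choice reversed the sign for AT1G63390 in Col/Ler (1.19), AT1G63540 in both families (1.35 in C24/Col and 0.92 in Col/Ler), AT4G04402 in C24/Col (1.37) and AT5G15360 in both (2.25 and 2.22). With the replicate block the calls against the parental mean were 1 and 1 in the Col families and 0 in C24/Ler. For C24/Ler that fit also left out the LerxC24 libraries, whose letters match no label. Its log2 differences ran from -0.55 to 1.04 (median 0.28), in place of -0.52 to 0.65 (median 0.19). By edgeR 5 genes then had an unadjusted p below 0.05, in place of 2. DESeq2 gave 11, 10 and 6 genes for C24/Col against C24, Col/Ler against Ler and C24 against Ler, in place of 10, 9 and 4. The share of all genes called was computed only for the main edgeR fits and those with the letter as a block. Without the filter 1 gene was called in Col/Ler, AT1G63540. With letter C included 2 genes differed between C24 and Ler. A 4-fold threshold gave 44 genes, with a C24/Col median of 89.1%, and a 16-fold threshold 13 genes.

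Leaving out 1 library at a time gave 2 to 5 genes for C24 against Ler (2 without C24 G or Ler G), 6 to 11 for C24/Col against C24 (6 without C24 A), 5 to 10 for Col/Ler against Ler (5 without Ler A), 0 to 1 for Col/Ler against the parental mean (1 without Col B), and 0 to 0 in the other tests. The medians ran from 97.7% to 104.4% in C24/Col and from 96.2% to 110.5% in Col/Ler. DESeq2 was not run against the arithmetic mean.

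With 2 libraries per genotype, SDs are rough. Genes near 1 CPM in C24 and Ler rest on few counts, such as 94 to 141 for AT3G23109.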
